A study of Mus musculus with 8 samples.

Results

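The genes of cholesterol and fatty acid synthesis were followed in cultured mouse macrophages with and without the Lyz2-Cre driver on a floxed Opa1 background. The 37 members are a list of gene symbols from the known steps of both pathways, drawn up with earlier results of these data known, and all 37 are among the 24421 gene symbols of each count file and passed the filter on low counts (11519 symbols tested). They fall into 18 enzymes of the sterol branch, 6 regulators and carriers, and 13 enzymes of the fatty acid branch. RNA of bone marrow-derived macrophages (BMDM, primary cells grown out of marrow) was sequenced after 24 h with interleukin 4 (IL-4), a cytokine of alternative activation. CKO stands for 4 libraries of OPA1f/f; Lyz2-Cre mice (replicates 2, 6, 7 and 8), in which Cre recombinase is expressed in myeloid cells from the Lyz2 locus. FLOX stands for 4 libraries of OPA1f/f mice, with no Cre in their genotype label (replicates 3, 4, 6 and 7). All 8 libraries carry the floxed Opa1 allele and had IL-4, and no untreated library is part of the comparison. The sources used here give neither the age of the mice nor the number of animals behind a library, so p-values measure only the spread between these libraries.

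Cells make cholesterol from acetyl-CoA through mevalonate, isoprenoid units, squalene and lanosterol, and make fatty acids by joining acetyl-CoA units on fatty acid synthase, followed by elongation and desaturation. The SREBP transcription factors drive both branches when sterols in the endoplasmic reticulum run low: SCAP carries SREBP to the Golgi for cleavage, and the INSIG proteins hold it back. Liver X receptors, the oxysterol-sensing nuclear receptors of macrophages, raise cholesterol efflux genes together with Srebf1 and Scd1. Macrophages use these pathways for membranes, for lipid mediators and for tuning their response to cytokines.

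Because both branches share SREBP control, the upstream sequence of some members is shown first. RefSeq promoter windows (GRCm38.p6, the assembly of mm10; 250 bases before to 50 after a start site) were found for 30 of the 37 members. The 250 bases before the start are printed 5′ to 3′ on the gene's strand for Hmgcs1, the one member whose window held the sterol regulatory element searched for, and for 3 members with higher RNA in CKO (Hsd17b7, Fasn and Idi1). Capitals mark TCACNCCAC (sterol regulatory element, N being any base) and CCAAT, the box bound by the SREBP partner NF-Y, on either strand (ATTGG on the other).
Hmgcs1, chr13:119690101-119690350, plus strand: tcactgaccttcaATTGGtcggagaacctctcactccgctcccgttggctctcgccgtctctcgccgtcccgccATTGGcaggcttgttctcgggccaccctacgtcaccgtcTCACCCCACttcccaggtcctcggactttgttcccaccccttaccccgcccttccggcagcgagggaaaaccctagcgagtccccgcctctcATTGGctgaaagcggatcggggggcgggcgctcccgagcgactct
Hsd17b7, chr1:169969206-169969455, minus strand: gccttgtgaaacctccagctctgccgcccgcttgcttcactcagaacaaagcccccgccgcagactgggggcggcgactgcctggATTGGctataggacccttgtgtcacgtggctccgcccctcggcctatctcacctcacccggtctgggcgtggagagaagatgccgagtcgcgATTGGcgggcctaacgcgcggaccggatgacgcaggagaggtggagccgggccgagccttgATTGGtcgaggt
Fasn, chr11:120824548-120824797, minus strand: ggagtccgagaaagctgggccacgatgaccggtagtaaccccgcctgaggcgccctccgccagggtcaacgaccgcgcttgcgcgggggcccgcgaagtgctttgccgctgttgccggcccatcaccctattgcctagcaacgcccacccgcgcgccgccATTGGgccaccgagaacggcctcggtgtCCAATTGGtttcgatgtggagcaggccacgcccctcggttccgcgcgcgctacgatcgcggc
Idi1, chr13:8885356-8885605, plus strand: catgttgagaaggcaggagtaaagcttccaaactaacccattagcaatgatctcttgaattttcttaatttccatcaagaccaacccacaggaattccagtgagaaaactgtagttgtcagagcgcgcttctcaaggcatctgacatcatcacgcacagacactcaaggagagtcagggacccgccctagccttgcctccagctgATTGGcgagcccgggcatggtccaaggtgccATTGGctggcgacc
In Fasn a CCAAT and an ATTGG overlap by 2 bases, which appear as 1 run of capitals.

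A CCAAT box on either strand stood in the windows of 25 of these 30 members (83.3%), against 43.2% of the 8895 tested genes with a window. The Sp1 box GGGCGG was in 24 (80.0%, against 69.1%), and the E-box CACGTG in 6 of 30 (against 12.1%). TCACNCCAC was found in Hmgcs1 alone among these 30 (3.33%, against 1.41%). The members with no window, which were not searched, were Fdps, Fdft1, Sqle, Stard4, Scd1, Scd2 and Fads1. The only windows of Acaca, Acacb and Tm7sf2 lie inside the annotated genes, so sequence before their annotated first base was not searched. Those of Fads2 and Msmo1 lie mostly inside the annotated gene, and several others, that of Idi1 among them, do so in part. A match is a description of the letters in a short window and not evidence of binding, and genes with several start sites have several windows.

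Read pairs assigned to genes came to 11764855 to 18939948 per library. Levels are given as CPM, counts divided by library sizes that were scaled by TMM (the edgeR normalisation that trims extreme genes), and a gene was called where edgeR's quasi-likelihood test, with Benjamini-Hochberg adjustment over all tested genes, gave less than 0.05. Changes are CKO over FLOX on the log2 scale. Opa1 stood at 114 ± 11.6 CPM in FLOX and 100.1 ± 4.42 CPM in CKO (SD, n = 4 each), log2 change -0.19, SE 0.07, edgeR adjusted p = 0.0544. At the level of whole-gene counts the targeted gene was thus not called, and the counts do not resolve the floxed exons. Without FLOX replicate 3 the Opa1 log2 fold change was -0.23 (edgeR adjusted p = 0.0182), and without FLOX replicate 6 it was -0.21 (0.0496), within a range of 0.00139 to 0.258 over 19 alternatives. Lyz2, the locus that holds the Cre insertion, was at 6906 to 8294 CPM in FLOX and 1809 to 2387 CPM in CKO. Macrophage markers were abundant (7 genes summed to 6812 to 7325 CPM in CKO and 7536 to 7967 CPM in FLOX). They did not move together: Fcgr1 was called higher (log2 change 1.04). Mertk (-0.78), Cd68 (-0.48) and Csf1r (-0.42) were called lower, and 3 were not called. The extraction text of the labels speaks of islets, but 5 of 6 islet markers (Ins1, Ins2, Gcg, Iapp and Sst) had 0 counts in every library. Of 6 adipocyte markers Plin1, Lep and Cfd had 0 counts in every library, and the sum (1.82 to 3.52 CPM in CKO and 9.50 to 13.9 CPM in FLOX) was almost all Adipoq. The part of these marker differences in the results below was not tested. Loss of Opa1, expression of Cre and a batch shared within a genotype cannot be told apart here. Nor can fewer expressing cells be told apart from less RNA per cell.

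Synthesis genes were higher in CKO more often than lower. Of the 37 members 17 rose and 4 fell, which is 45.9% and 10.8%, where 23.8% and 21.6% of all tested genes rose and fell (45.4% called in all). The median log2 fold change was 0.17 over the members and -0.02 over all tested genes. Called with a log2 fold change of at least 0.5 either way were 9 members (24.3%), against 19.3% of all tested genes. Past 1 either way were 4 members (10.8%; Hsd17b7, Me1, Elovl6 and Scd1), against 5.84% of all tested genes. The groups kept fully apart in CPM for 15 of the 37, a share close to the 42.7% of all tested genes.

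**Figure D1:**
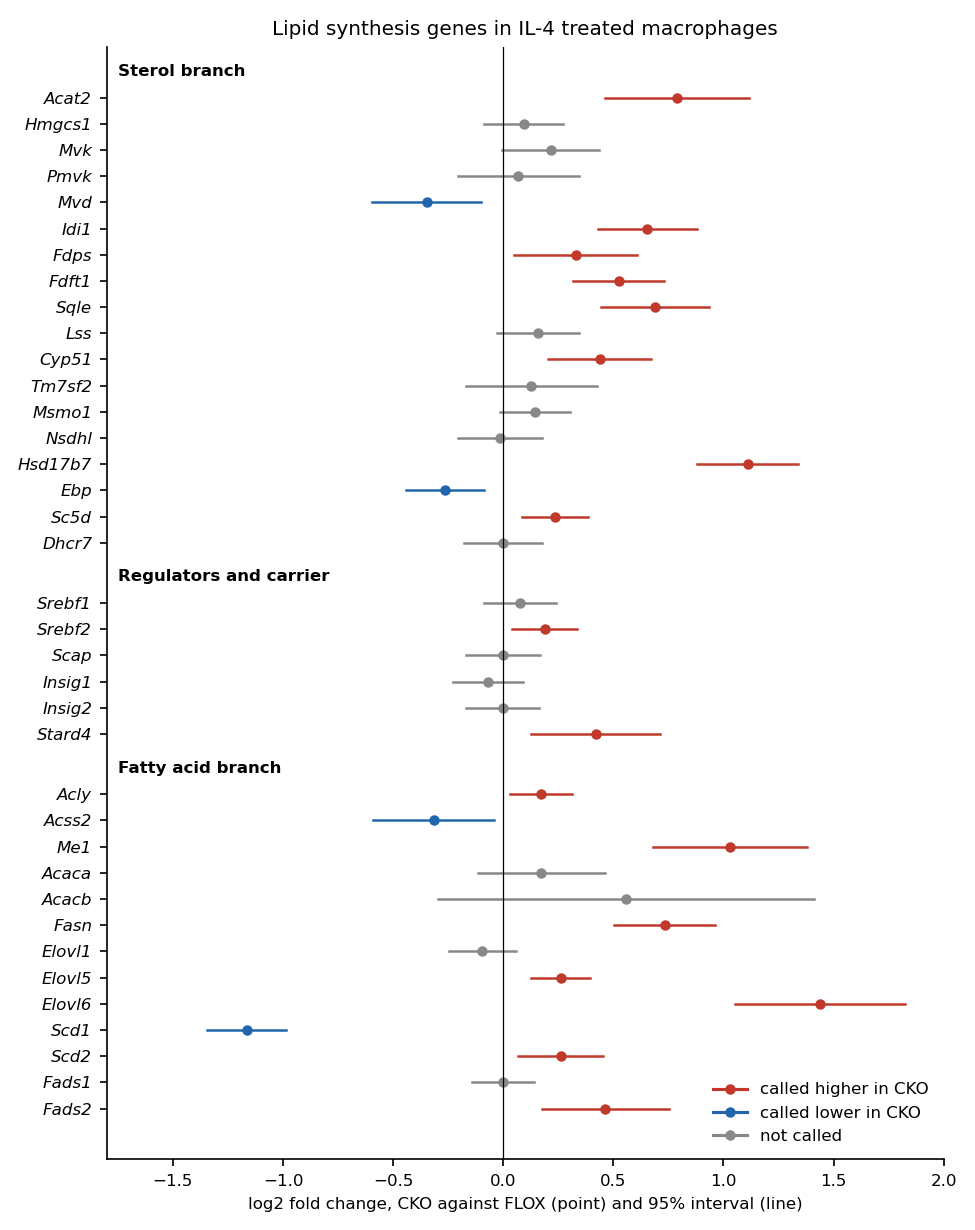
Log2 fold change of each member in CKO against FLOX (point) with its 95% interval (line, 6 degrees of freedom), by branch. Red members were called higher, blue lower and grey not called; Elovl6 lies farthest to the right at 1.44 and Scd1 farthest to the left at -1.17.

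In the sterol branch 8 of 18 enzymes rose and 2 fell and 8 were not called. That is 44.4% and 11.1%, where 23.8% and 21.6% of all tested genes rose and fell. The groups kept fully apart in CPM for 7 of the 18, where 42.7% of all tested genes did. The counts for parts of the branch below stand beside the same shares. The rises included the consecutive steps of Idi1, Fdps, Fdft1 and Sqle, from the isoprenoid units to squalene epoxide. Hsd17b7, a ketosteroid reductase that acts in the removal of methyl groups after lanosterol, rose 2.16-fold. Acat2, the cytosolic thiolase that joins acetyl-CoA units at the start, rose 1.73-fold. Sqle, squalene epoxidase and a rate-limiting step, rose 1.61-fold, and Idi1, the isomerase that turns the isoprenoid unit added during chain growth into the primer that starts the chain, 1.57-fold. Mvd, the decarboxylase that makes the isoprenoid unit from mevalonate, and Ebp, a sterol isomerase near the end, fell.

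Among the first enzymes, up to isoprenoid units and farnesyl diphosphate, 3 of 7 rose and 1 fell. Acat2 stood at 24.2, 17.3, 28.6 and 20.9 CPM in FLOX and 33.6, 44.3, 39.7 and 40.4 CPM in CKO. No FLOX library reached the lowest CKO library, and the highest FLOX value was that of replicate 6 (log2 change 0.79, SE 0.13, edgeR adjusted p = 0.000472). Idi1 stood at 20.3, 21.1, 25.4 and 21.5 CPM in FLOX and 30.6, 37.3, 33.8 and 37.6 CPM in CKO. Here too all CKO libraries lay above all FLOX libraries (log2 change 0.65, SE 0.09, edgeR adjusted p = 0.000104). Fdps, the synthase of farnesyl diphosphate, was at 69.7 to 108 CPM in FLOX and 103 to 116 CPM in CKO, with FLOX replicate 6 inside the CKO range (log2 change 0.33, SE 0.11, edgeR adjusted p = 0.033). The Fdps call held in 12 of 19 alternatives, with adjusted p from 3.65e-06 to 0.194, and it ended on removal of CKO replicate 6 (0.0733), CKO replicate 7 (0.0563), FLOX replicate 4 (0.0786) or FLOX replicate 7 (0.0843).

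Mvd went the other way, at 41.0, 32.1, 45.2 and 39.7 CPM in FLOX and 35.1, 31.2, 30.0 and 28.4 CPM in CKO. FLOX replicate 4 lay inside the CKO range, and the other FLOX libraries were above it (log2 change -0.35, SE 0.10, edgeR adjusted p = 0.0142). Its call ended without CKO replicate 7 (edgeR adjusted p = 0.0533) or 8 (0.0597), within a range of 0.000426 to 0.082 over 19 alternatives. Hmgcs1, the synthase of HMG-CoA and the most abundant of these 7 by CPM, stood at 123, 115, 131 and 142 CPM in FLOX and 125, 145, 136 and 139 CPM in CKO. The groups overlapped, and its log2 fold change was 0.09 (95% interval -0.09 to 0.27). Mevalonate kinase Mvk, at 13.6 to 16.3 CPM in FLOX and 15.8 to 19.1 CPM in CKO, had a log2 fold change of 0.22 (95% interval -0.0036 to 0.44) and was not called with all libraries (edgeR adjusted p = 0.0675). It was called without CKO replicate 2 (0.0287) or FLOX replicate 3 (0.0395), among 5 of 19 alternatives, with adjusted p from 0.0196 to 0.293. The next kinase, Pmvk, was at 13.6 to 19.0 CPM in FLOX and 15.2 to 17.9 CPM in CKO with a log2 fold change of 0.07 (95% interval -0.20 to 0.34). It was called with FLOX replicates 3 and 6 left out, at 0.27 (edgeR adjusted p = 0.0357), and was -0.10 with FLOX replicates 4 and 7 left out. Over 19 alternatives its adjusted p ranged from 0.0357 to 0.971.

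At the passage to squalene and lanosterol 2 of 3 enzymes rose. Squalene synthase Fdft1, which commits farnesyl diphosphate to sterols, stood at 34.9, 27.4, 32.9 and 27.5 CPM in FLOX and 44.3, 46.2, 42.4 and 43.7 CPM in CKO. The libraries of the groups did not overlap (log2 change 0.52, SE 0.09, edgeR adjusted p = 0.000319). Its exons share 774 bases with cathepsin B (Ctsb) on the opposite strand, and the strand setting of the counting is not given in the sources used here. Ctsb was at 17045 to 18746 CPM in FLOX and 11334 to 13678 CPM in CKO, which is a fall (log2 fold change -0.54) where Fdft1 rose. Sqle stood at 52.6, 44.7, 61.7 and 50.1 CPM in FLOX and 71.5, 89.5, 87.3 and 89.5 CPM in CKO. All CKO libraries were above all FLOX libraries, CKO replicate 2 being the lowest of its group by a wide gap (log2 change 0.69, SE 0.10, edgeR adjusted p = 0.000132). Lss, lanosterol synthase, was at 34.3 to 39.5 CPM in FLOX and 38.6 to 45.2 CPM in CKO with a log2 fold change of 0.16 (95% interval -0.03 to 0.34), and was called only without CKO replicate 2 (edgeR adjusted p = 0.0481), among alternatives that ran from that value to 0.265.

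Between lanosterol and cholesterol 3 of 8 enzymes rose and 1 fell. Hsd17b7 (ENSMUSG00000026675, chromosome 1, 169949535 to 169969241, mm10) stood at 9.04, 9.61, 9.99 and 11.4 CPM in FLOX and 19.4, 23.1, 21.3 and 22.6 CPM in CKO. Every CKO library was well above every FLOX library (log2 change 1.11, SE 0.09, edgeR adjusted p = 2.34e-06). Cyp51, the lanosterol demethylase, was at 55.1 to 73.3 CPM in FLOX and 72.3 to 91.7 CPM in CKO, with only CKO replicate 2 below the highest FLOX library (log2 change 0.44, SE 0.10, edgeR adjusted p = 0.00258). Sc5d, a sterol desaturase, was at 45.1 to 50.9 CPM in FLOX and 54.2 to 58.5 CPM in CKO with no overlap but a small rise (log2 change 0.24, SE 0.06, edgeR adjusted p = 0.00718). Ebp was lower, at 50.5 to 62.0 CPM in FLOX and 44.4 to 47.7 CPM in CKO, also with no overlap (log2 change -0.26, SE 0.07, edgeR adjusted p = 0.00986). Its call ended when FLOX replicates 3 and 6 were both left out (edgeR adjusted p = 0.057), within 0.000372 to 0.0924 over 19 alternatives.

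Hsd17b7 works on the same demethylation as Msmo1, the sterol methyl oxidase, and Nsdhl, the sterol dehydrogenase, and those partners were not called. Msmo1, the most abundant of these 8 by CPM, stood at 102, 94.7, 109.7 and 95.9 CPM in FLOX and 103, 116, 114 and 112 CPM in CKO. The ranges overlapped, with a log2 fold change of 0.14 (95% interval -0.02 to 0.30). Msmo1 was not called with all libraries (edgeR adjusted p = 0.0925) but was without CKO replicate 2 (0.0261) or FLOX replicate 6 (0.0391), among 4 of 19 alternatives, with adjusted p from 0.00592 to 0.396. Nsdhl, at 29.5 to 35.1 CPM in FLOX and 29.0 to 33.4 CPM in CKO, had a log2 fold change of -0.01 (95% interval -0.21 to 0.18). Dhcr7, the reductase of the last step to cholesterol, was at 39.4 to 48.8 CPM in FLOX and 42.5 to 46.7 CPM in CKO, with a change of -0.0025 (95% interval -0.18 to 0.17). Tm7sf2, a sterol reductase at only 4.31 to 5.67 CPM in FLOX and 4.93 to 5.80 CPM in CKO, had 0.13 (95% interval -0.17 to 0.43). Whether the change of Hsd17b7 differs from that of its partners was not tested.

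The summed level of the 18 sterol enzymes was 892 to 999.98 CPM in CKO and 724 to 897 CPM in FLOX, so the groups touched: CKO replicate 2 was just below FLOX replicate 6. The sum weights abundant genes such as Hmgcs1 and Msmo1, which were not called.

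Of the 6 regulators and carriers 2 rose, by small amounts, and 4 were not called. That is 33.3% rising and 0% falling, beside the 23.8% and 21.6% of all tested genes that rose and fell (45.4% called in all). The summed level of the 6 was 484 to 503 CPM in CKO and 424 to 480.0 CPM in FLOX. Srebf2, which encodes the SREBP with the stronger pull on sterol genes, stood at 144, 152, 163 and 167 CPM in FLOX and 178, 174, 179 and 183 CPM in CKO. The ranges did not overlap, and the rise was small (log2 change 0.19, SE 0.06, edgeR adjusted p = 0.0233). The call was lost without FLOX replicate 3 (0.0534) or 4 (0.0593), within a range of 0.0104 to 0.565 over 19 alternatives. Stard4, a sterol carrier of the cytosol and itself an SREBP target, was at 25.9 to 39.9 CPM in FLOX and 37.1 to 48.2 CPM in CKO, FLOX replicate 7 lying within the CKO range (log2 change 0.42, SE 0.12, edgeR adjusted p = 0.0131). Srebf1, whose gene total adds its 2 main isoforms together, was at 70.5 to 84.4 CPM in FLOX and 79.7 to 87.0 CPM in CKO, with a log2 fold change of 0.08 (95% interval -0.09 to 0.24). Scap was at 42.9 to 48.3 CPM in FLOX and 41.3 to 47.8 CPM in CKO, with a change of -0.00062 (95% interval -0.17 to 0.17). Insig1, a sensitive SREBP target as well as an inhibitor, was at 97.6 to 108 CPM in FLOX and 89.5 to 104 CPM in CKO, with a change of -0.07 (95% interval -0.23 to 0.09). Insig2 was at 40.9 to 48.9 CPM in FLOX and 42.5 to 45.3 CPM in CKO, with a change of -0.0029 (95% interval -0.17 to 0.16). In these 4 the ranges of the groups overlapped. RNA levels do not show how much SREBP was cleaved.

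**Figure D2:**
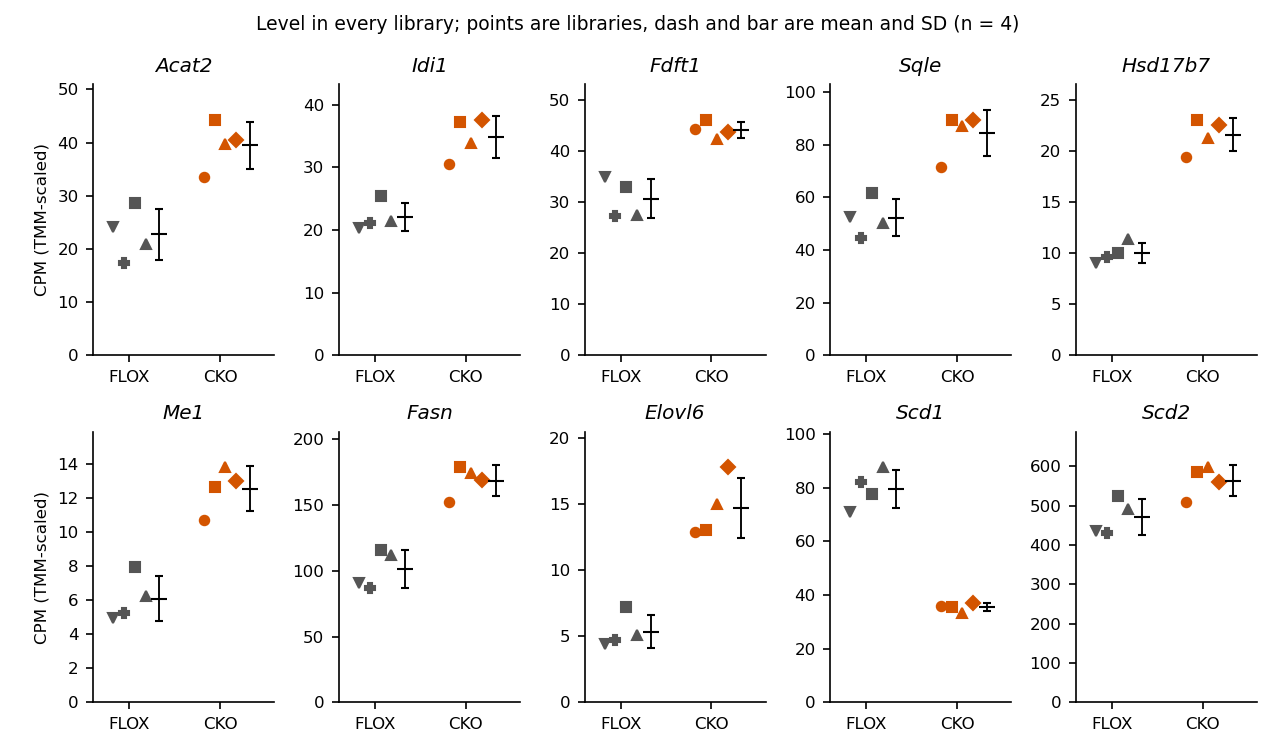
CPM on TMM-scaled library sizes (y axis, from 0) in each FLOX and CKO library (points) with the group mean and SD (dash and bar, n = 4), for the 9 members called with a log2 fold change of at least 0.5 either way, and Scd2. Point shapes mark the replicate, squares being replicate 6 and upright triangles replicate 7. Scd1 is the one panel with CKO below FLOX; the groups overlap only for Scd2.

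In the fatty acid branch 7 of 13 enzymes rose and 2 fell. That is 53.8% and 15.4%, beside the 23.8% and 21.6% of all tested genes that rose and fell. Elovl6, which lengthens saturated and monounsaturated chains, rose 2.71-fold, malic enzyme Me1, a source of NADPH, 2.04-fold, and fatty acid synthase Fasn 1.66-fold. The desaturase Scd1 fell to 44.6% of FLOX, while its neighbour and paralog Scd2 rose by 0.26 on the log2 scale. The summed level of the 13 was 1454 to 1603 CPM in CKO and 1277 to 1457 CPM in FLOX, with CKO replicate 2 and FLOX replicate 6 touching. Without Scd2, which supplies the most counts, the sum was 944 to 1016 CPM in CKO and 842 to 932 CPM in FLOX, and the groups did not overlap.

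The suppliers of acetyl-CoA and NADPH differed among themselves. Acly, which releases acetyl-CoA from citrate in the cytosol, stood at 201, 206, 217 and 225 CPM in FLOX and 233, 250.5, 236 and 237 CPM in CKO. All CKO libraries were higher, by a small amount (log2 change 0.17, SE 0.06, edgeR adjusted p = 0.0266). Its call ended without CKO replicate 6 (0.0668), FLOX replicate 3 (0.0582) or FLOX replicate 4 (0.0698), within 0.0137 to 0.362 over 19 alternatives. Acss2, which makes acetyl-CoA from acetate, was much scarcer at 7.59 to 10.3 CPM in FLOX and 7.01 to 7.88 CPM in CKO, and the ranges overlapped (log2 change -0.32, SE 0.11, edgeR adjusted p = 0.0368). The Acss2 call held in 9 of 19 alternatives, with adjusted p from 0.012 to 0.262, and it ended without any single CKO library (2, 6, 7 or 8, adjusted p 0.0504, 0.0983, 0.114 and 0.112) and without FLOX replicate 4 (0.0979) or 6 (0.0938). Me1 stood at 4.98, 5.22, 7.94 and 6.25 CPM in FLOX and 10.7, 12.7, 13.8 and 13.0 CPM in CKO. No libraries overlapped, and FLOX replicate 6 was again nearest to CKO (log2 change 1.03, SE 0.14, edgeR adjusted p = 9.62e-05).

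For the synthesis of the chain itself, Fasn (ENSMUSG00000025153, chromosome 11, 120805846 to 120824547, mm10) stood at 90.4, 87.2, 116 and 112 CPM in FLOX and 152, 179, 174 and 169 CPM in CKO. The lowest CKO library, replicate 2, was above the highest FLOX library, replicate 6 (log2 change 0.73, SE 0.09, edgeR adjusted p = 5.41e-05). Acaca, the acetyl-CoA carboxylase that feeds it with malonyl-CoA, was at 50.7 to 79.1 CPM in FLOX and 65.5 to 78.2 CPM in CKO. FLOX replicate 7 was the highest of all 8 libraries, FLOX replicate 4 lay within the CKO range, and FLOX replicates 3 and 6 were below it. The log2 fold change of Acaca was 0.17 (95% interval -0.12 to 0.46), and it was not called with all libraries (edgeR adjusted p = 0.257). Acacb, the carboxylase isoform tied to mitochondria, was scarce at 0.270 to 1.21 CPM in FLOX and 0.986 to 1.28 CPM in CKO (from 5 to 19 counts). Its log2 fold change was 0.56 (95% interval -0.30 to 1.41), and it was not called with all libraries (edgeR adjusted p = 0.215).

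The elongases split. Elovl6 stood at 4.42, 4.69, 7.18 and 5.11 CPM in FLOX and 12.9, 13.1, 14.98 and 17.8 CPM in CKO. Each CKO library was higher than each FLOX library (log2 change 1.44, SE 0.16, edgeR adjusted p = 1.47e-05). Elovl5, which lengthens polyunsaturated chains, was at 96.0 to 103 CPM in FLOX and 113 to 122 CPM in CKO with no overlap (log2 change 0.26, SE 0.05, edgeR adjusted p = 0.00188). Elovl1, which makes very long saturated chains and was the most abundant elongase by CPM, stood at 160.5, 143, 156 and 138 CPM in FLOX and 141, 139.7, 144 and 134 CPM in CKO. These ranges overlapped and the log2 fold change was -0.10 (95% interval -0.25 to 0.06). Elovl1 shares 53 exonic bases with the mitotic gene Cdc20 on the opposite strand.

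Among the desaturases, Scd1 (ENSMUSG00000037071, chromosome 19, 44394455 to 44407879, mm10) stood at 70.9, 82.0, 77.8 and 87.7 CPM in FLOX and 36.0, 35.5, 33.5 and 37.0 CPM in CKO. All CKO libraries lay below the lowest FLOX library, and the call held in all 19 alternatives (log2 change -1.17, SE 0.07, edgeR adjusted p = 3.24e-07). Scd2 (ENSMUSG00000025203, chromosome 19, 44293674 to 44306864), 87.6 kb away, stood at 434, 431, 524 and 491 CPM in FLOX and 509.7, 587, 598 and 559 CPM in CKO. FLOX replicate 6 was above CKO replicate 2, and the other libraries kept apart (log2 change 0.26, SE 0.08, edgeR adjusted p = 0.0165). The Scd2 call ended without FLOX replicate 4 (edgeR adjusted p = 0.0503), within 0.00213 to 0.116 over 19 alternatives. Both genes encode enzymes that place the first double bond in saturated chains. Per kilobase of mRNA, Scd1 made up 15.6%, 17.7%, 14.3% and 16.8% of the Scd1 and Scd2 total in FLOX. In CKO the share was 7.39%, 6.39%, 5.94% and 6.95%. Scd2 was thus the main desaturase transcript in all 8 libraries, and the share of Scd1 was lower in each CKO library than in any FLOX library.

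Fads1 and Fads2, neighbours on chromosome 19, 81.1 kb apart, desaturate polyunsaturated chains in turn. Fads2, which acts first, was at 29.3 to 42.8 CPM in FLOX and 43.4 to 52.9 CPM in CKO, with FLOX replicate 6 close below the lowest CKO library (log2 change 0.46, SE 0.12, edgeR adjusted p = 0.00666). Fads1 was at 119 to 135 CPM in FLOX and 120.4 to 128 CPM in CKO, with a log2 fold change of -0.00052 (95% interval -0.14 to 0.14). Whether the neighbours differ from each other in response was not tested.

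Ordered by level per kilobase of the longest annotated coding transcript, Scd2 was the most abundant member in both groups (86.2 ± 8.35 CPM per kb in FLOX and 103 ± 7.21 in CKO, SD, n = 4 each). In FLOX it was followed by Elovl1 (82.4 ± 5.79), Fdps (62.3 ± 12.3), Msmo1 (49.2 ± 3.36) and Acly (47.9 ± 2.44). Scd2 and Elovl1 did not differ beyond their SDs in FLOX, nor did Msmo1 and Acly. In CKO the first 5 were the same genes, with Fdps (78.3 ± 4.05) and Elovl1 (77.1 ± 2.36) within their SDs of each other. Of the 4 members past 1 on the log2 scale, 3 were scarce: Elovl6 was rank 36 of 37 in both groups (0.899 ± 0.211 CPM per kb in FLOX), Me1 rank 35 and Hsd17b7 rank 34 in FLOX. The fourth, Scd1, went from rank 15 in FLOX to rank 31 in CKO. Ranks depend on the transcript chosen for the length.

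**Figure D3:**
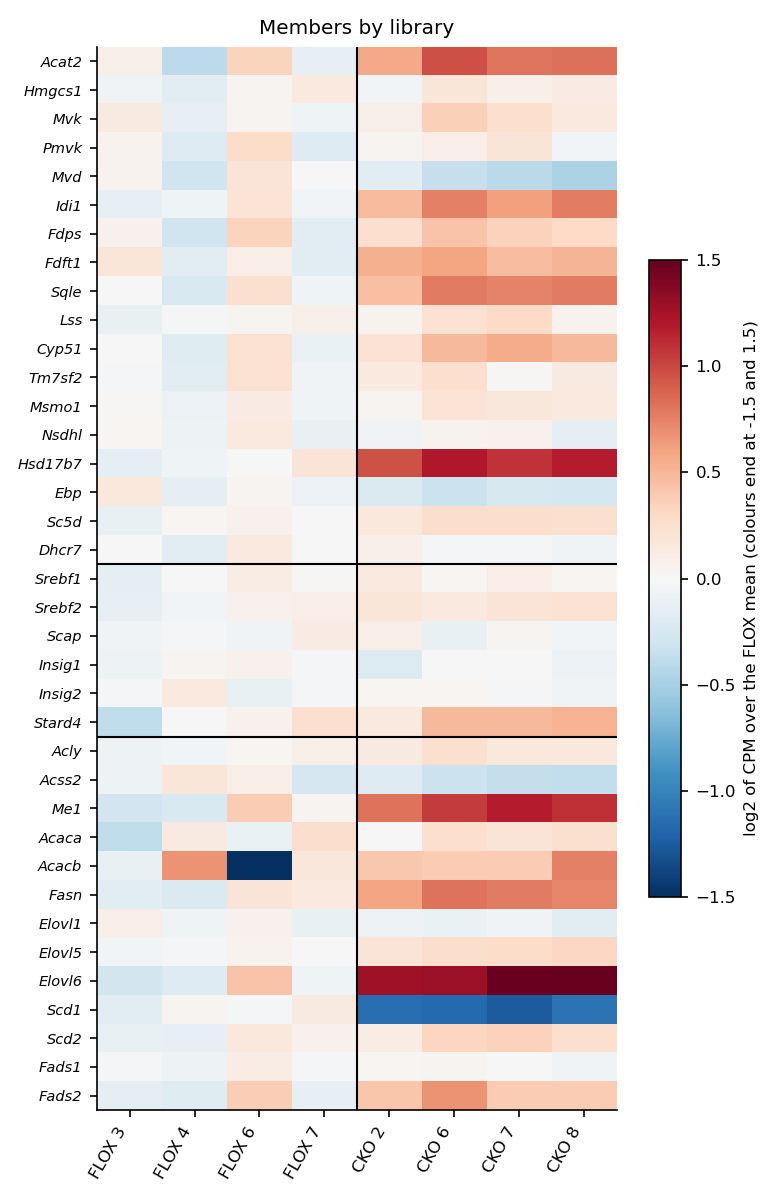
Log2 of each library's CPM over the FLOX mean of the same gene (colour), for the 37 members (rows; lines part the sterol branch, the regulators and the fatty acid branch) in 4 FLOX and 4 CKO libraries (columns). Hsd17b7, Me1, Fasn and Elovl6 are red and Scd1 is blue in every CKO library; the dark cell of Acacb in FLOX 6 rests on 5 counts.

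For 17 of the 21 called members (81.0%) the CKO value closest to FLOX was that of replicate 2, and over all 5231 called genes that share was 61.1%. On the other side FLOX replicate 6 came closest to CKO for 12 of the 21 (57.1%, against 40.4% of all called genes). With both left out 22 members were called, and 4857 of all tested genes (21 and 5231 with all libraries). Proliferation genes differed with genotype alongside: all 8 listed (among them Mki67 and Top2a) rose, and their sum was 2787 to 3337 CPM in CKO and 1456 to 1756 CPM in FLOX. CKO replicate 2 was again the lowest CKO library and FLOX replicate 6 the highest FLOX library of that sum. The part of proliferation in the changes of the synthesis genes was not tested.

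Genes around the 2 branches, from lists drawn up with earlier results of these data known, did not follow a single direction. Their counts stand beside the 23.8% of all tested genes that rose and the 21.6% that fell. Among 8 genes of SREBP processing and sterol-regulated protein degradation 1 rose and 2 fell, with a median log2 fold change of -0.06. Erlin1, which binds cholesterol in the endoplasmic reticulum and restrains SREBP, rose and was at 53.9 to 57.4 CPM in FLOX and 75.7 to 81.2 CPM in CKO (log2 change 0.48, SE 0.05, edgeR adjusted p = 1.96e-05). The ubiquitin ligases Syvn1 (-0.35) and Rnf145 (-0.25) fell. Of 13 genes that use isoprenoids 2 rose and 1 fell (median 0.10). The rises were Pdss1 (0.97) and Coq2 (0.61), which build the side chain of coenzyme Q and attach it, and the fall was Nus1 (-0.22), of dolichol synthesis.

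Genes for moving, storing and exporting sterols went lower more often: of 16, 3 rose and 8 fell, with a median of -0.26. Mylip, which degrades lipoprotein receptors, fell by 0.72 on the log2 scale, and Cyp27a1, which makes an oxysterol that activates liver X receptors, was at 45.9 to 55.5 CPM in FLOX and 21.6 to 27.3 CPM in CKO (log2 change -1.02, SE 0.09, edgeR adjusted p = 2.17e-06). Ch25h, which makes another oxysterol and is interferon-inducible, was higher, at 2.98 to 3.56 CPM in FLOX and 11.4 to 23.3 CPM in CKO (log2 change 2.49, SE 0.22, edgeR adjusted p = 5.31e-06). Of 20 tested further genes of fatty acid synthesis and activation (27 in the files) 6 rose and 3 fell, which at 45.0% called is near the 45.4% of all tested genes (median 0.09). Elovl7 (1.22) and the dehydratase Hacd2 (0.58) rose, and Mlxip (-0.64), a glucose-sensing transcription factor, fell.

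Of 4 other enzymes that supply cytosolic NADPH 2 fell and 2 were not called. Idh1 was at 627 to 679 CPM in FLOX and 360.1 to 438 CPM in CKO (log2 change -0.77, SE 0.07, edgeR adjusted p = 4e-06), and the log2 change of G6pdx was -0.30. In glycerolipid synthesis, of 13 tested genes (16 in the files) 4 rose and 3 fell, with a median of -0.03. Lpin1, the phosphatidate phosphatase, was at 77.3 to 99.2 CPM in FLOX and 35.9 to 41.9 CPM in CKO (log2 change -1.18, SE 0.09, edgeR adjusted p = 1.69e-06), and Plin2, a coat protein of lipid droplets, fell by 0.57 on the log2 scale. Agpat9 (Gpat3), an acyltransferase of the first step, rose by 1.83 from below 1 CPM.

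**Figure D4:**
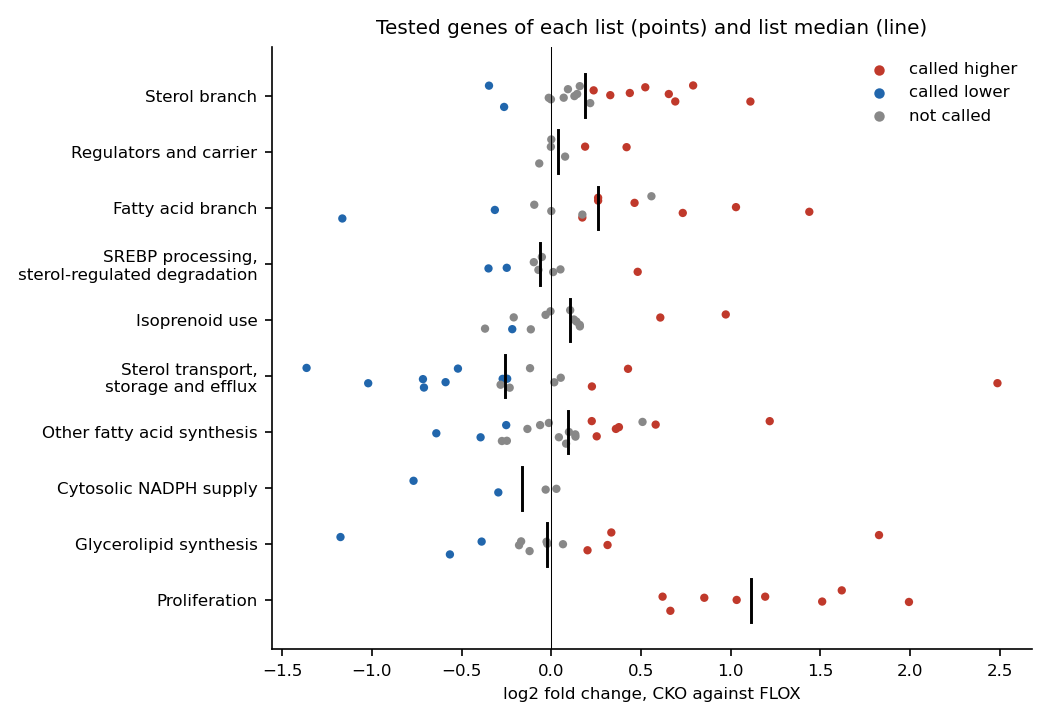
Log2 fold change of each tested gene (points, spread vertically for legibility) in CKO against FLOX for the member branches, the related lists and the proliferation genes, with the median of each list (black line). The 8 proliferation genes all lie to the right of 0, while sterol transport, storage and efflux has its median at -0.26.

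Some members share sequence with other genes, which bears on their counts because pairs that align more than once were not assigned. Of the distinct 50-base words in their annotated transcripts, 39.1% of those of Acat2 occur in Acat3 (below 1 CPM in these libraries). Words that occur in other genes made up 30.4% for Acaca, 26.2% for Fdps, 22.9% for Me1, 17.7% for Idi1, 9.87% for Tm7sf2 and 9.38% for Fdft1. For Scd1 and Scd2 the shares were 4.56% and 3.97%. The levels of Acat2, Acaca, Me1, Idi1 and, with a smaller share, Fdft1 are therefore uncertain, although the same rule applied to both groups. For Fdps the gene that shares most words is Gm43738, which overlaps it on the same strand by 1124 exonic bases. Tm7sf2 likewise overlaps Vps51 on the same strand by 532 exonic bases. Vps51 was more abundant, at 43.6 to 52.6 CPM in FLOX and 41.0 to 48.3 CPM in CKO. Pairs from such overlaps need not align more than once. How far the levels of Fdps and Tm7sf2 are affected is not known.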

How the data were processed

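RNA of 8 libraries of IL-4-treated BMDM (4 CKO, 4 FLOX, grouped by the genotype in the labels) was sequenced in read pairs. Per the submitters' processing notes HISAT2 2.0.5, HTSeq and mm10 were used, and the deposited values are whole-number counts per gene symbol with no scaling. The sources used here give neither the annotation nor the strand setting of the counting. Rows that name no gene (no feature, ambiguous, low quality, not aligned, not unique) stayed out, and 66.3% to 71.7% of pairs were assigned to genes. The table of the whole series held the same values for all 24394 symbols matched by name.

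Counts were tested with edgeR 4.0.16 (R 4.3.3): filterByExpr (minimum count 10, minimum total 15), TMM, and the robust quasi-likelihood F test with group as the one term, Benjamini-Hochberg adjusted over 11519 genes. The 95% intervals use 6 residual degrees of freedom, and the biological coefficient of variation was 8.77%. The quasi-likelihood test also draws degrees of freedom from the other genes, so the intervals are wider than its p-values imply. For Mvk that test gave an unadjusted p of 0.0326, while the interval was -0.0036 to 0.44. The scripts were tested on simulated data. The alternatives were other scaling factors, filters, DESeq2 1.42.0, limma-voom (limma 3.58.1), each single library left out, removal of the 20 most abundant genes, and a replicate block. Further alternatives left out CKO replicate 2 with FLOX replicate 6, FLOX replicates 3 and 6, or FLOX replicates 4 and 7. No other pair of libraries was left out. Positions, lengths and overlaps come from GENCODE M21 (mm10), and promoter windows from RefSeq.

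Members and lists were chosen with earlier results of these data known. Values in every library are given for members called with a log2 fold change of at least 0.5 either way and for the most abundant of each role, and also for Mvd, chosen after its values were seen. In each related list up to 3 called genes of smallest p are named. Marker lists were macrophage, islet, adipocyte, proliferation, fibroblast (summing to 1.15 to 2.35 CPM in CKO and 1.19 to 1.44 CPM in FLOX), neutrophil (2.90 to 7.46 CPM in CKO and 1.42 to 2.52 CPM in FLOX) and T and B cell (at most 0.330 CPM in any library).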

Additional observations from a re-analysis of the deposited data

Results flagged for a closer look

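Among the 74 sets of 4 values (37 members in each genotype), 6 had a single library standing far from the other 3; chance marks about 1 such set in 20. In CKO, replicate 2 was lowest for squalene epoxidase Sqle, at 71.5 CPM where the other 3 were at 87.3 to 89.5, and for the sterol carrier Stard4, at 37.1 CPM against 47.0 to 48.2. The desaturase Fads2 had replicate 6 highest in both genotypes, at 52.9 CPM in CKO (others 43.4 to 44.5) and 42.8 CPM in FLOX (others 29.3 to 30.5), so the height of FLOX replicate 6 brought it just under the CKO range. Without FLOX replicate 6 the log2 fold change of Fads2 was 0.61, and without CKO replicate 6 it was 0.41. Scap was highest in FLOX replicate 7, at 48.3 CPM against 42.9 to 43.7. Acacb was highest in CKO replicate 8, at 1.28 CPM against 0.986 to 1.01, on few counts.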

How the results depend on the processing

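Of the 21 called members 12 kept their call and direction in all 19 alternatives, among them all 9 with a log2 fold change of at least 0.5 either way, and 9 lost the call in at least 1; 7 members that were not called became so in at least 1. The number of members called was 16 to 23 when 1 library at a time was left out (16 without FLOX replicate 4), while all tested genes called numbered 4273 to 5210 (4866 without FLOX replicate 4). The numbers 6 and 7 occur in both genotypes. Across genes, deviations from the group means correlated at 0.14 for the libraries numbered 6 and -0.07 for those numbered 7. Pairs of unlike number ran from -0.30 to 0.24. Whether libraries of the same number share more than the number cannot be told from these values. As no other number occurs in both genotypes, the replicate block takes the genotype change from CKO and FLOX replicates 6 and 7 alone. That fit gave the upper end of the adjusted p range for Srebf2, Ebp, Acly, Acss2 and Scd2. With the replicate block, which leaves 1 residual degree of freedom, 13 members and 3503 of all tested genes were called (5231 without it): sterol members called higher went from 8 to 6, fatty acid members called higher from 7 to 4, and sterol members called lower, fatty acid members called lower and regulators called higher each from 2 to 1. Sterol members called lower were 1 to 2 with 1 library left out and 0 without FLOX replicates 3 and 6. Fatty acid members called lower were 1 to 2 with 1 library left out, and 1 with DESeq2, without FLOX replicates 3 and 6, or without CKO replicate 2 and FLOX replicate 6. Regulators called higher were 1 to 2 with 1 library left out. The median log2 fold change of the sterol members was 0.19 with all libraries. It was 0.26 without FLOX replicates 3 and 6 and 0.13 without FLOX replicates 4 and 7. Sterol members called higher were 11 and 7 in those fits, where 6090 and 5898 of all tested genes were called. The median log2 fold change of the fatty acid members was 0.26 with all libraries and 0.15 without FLOX replicates 3 and 6. With FLOX replicates 4 and 7 left out instead, Acaca (log2 fold change 0.40), Elovl1 (-0.18) and Acacb were called. The cause was not tested. No alternative moved the median of all genes by more than 0.03.

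The log2 fold change changed sign in at least 1 alternative for 9 members, none of them called. With FLOX replicates 4 and 7 left out it was -0.10 for Pmvk, 0.045 for Scap, 0.061 for Insig2. Without CKO replicate 2 and FLOX replicate 6 it was 0.075 for Nsdhl, 0.047 for Dhcr7, 0.020 for Insig1, 0.054 for Fads1. With FLOX replicates 3 and 6 left out it was 0.082 for Nsdhl, 0.079 for Dhcr7, -0.031 for Acaca, 0.050 for Fads1. Under the replicate block it was 0.046 for Nsdhl, -0.0044 for Srebf1, 0.076 for Insig2. With the 20 most abundant genes removed it was 0.0057 for Nsdhl, 0.018 for Dhcr7, 0.019 for Scap, 0.017 for Insig2, 0.019 for Fads1. With upper-quartile factors it was 0.00019 for Dhcr7, 0.0038 for Scap, 0.0014 for Insig2, 0.0026 for Fads1. With limma-voom it was 0.0011 for Insig2, 0.00020 for Fads1. Leaving out 1 library at a time gave -0.052 to 0.044 for Nsdhl, -0.054 to 0.049 for Dhcr7, -0.019 to 0.052 for Scap, -0.042 to 0.047 for Insig2, -0.025 to 0.038 for Fads1. Acacb rests on 5 to 19 counts a library.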

Other observations

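The FLOX libraries differed among themselves, in the sterol branch and across the tested genes. For 13 of the 18 sterol enzymes the values of FLOX replicates 3 and 6 were both above those of FLOX replicates 4 and 7, and for none were they both below. Over all 11519 tested genes 34.0% had that order and 29.2% the opposite one. The summed sterol level was 816, 724, 897 and 790.2 CPM in FLOX replicates 3, 4, 6 and 7. Of the 13 fatty acid enzymes 2 had that order and 3 the opposite one, and of the 6 regulators 0 and 1. The labels give no batch that separates these libraries. The share of pairs with no feature was 7.67% and 7.02% in FLOX replicates 3 and 6, and 9.41% and 9.60% in FLOX replicates 4 and 7. The part of this in the order of the sterol enzymes was not tested.

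Of the other genes of fatty acid synthesis and activation, the elongase Elovl7 was at 1.14 to 1.82 CPM in FLOX and 3.10 to 3.77 CPM in CKO, log2 change 1.22, SE 0.17, edgeR adjusted p = 0.000104. Pdss1 was at 3.78 to 4.28 CPM in FLOX and 7.12 to 8.57 CPM in CKO and Coq2 at 15.5 to 20.6 CPM in FLOX and 25.0 to 27.6 CPM in CKO.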
